A study of Tachycineta bicolor with 14 samples.

Results

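The genes described here were those less abundant in each of 5 embryonic brains than in every one of the other 9 brains of a 14-embryo study of tree swallows (Tachycineta bicolor), a songbird that nests in cavities. Abundance was read as CPM, the estimated count of a gene divided by the total of its library and multiplied by 1000000. The members were chosen by their CPM in these same embryos. A gene was a member when its mean over the 14 brains was 5 CPM or more and its CPM in each of the 5 lay below the lowest CPM of the other 9. Of 13375 rows in the table, 9644 reached a mean of 5 CPM and 103 of these, or 1.07%, were members. The mirrored rule, with all 5 brains above all 9 others, found 31 rows, or 0.321%. Leaving out high-density embryo 3, one of the 5, raised the number of members to 174, while leaving out any other single embryo gave 104 to 125. With fewer brains to separate, the rule can only keep or add rows, apart from the effect on the mean of 5 CPM.

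The study took whole brains of embryos on embryonic day 11 and sequenced polyA RNA. The mothers of 7 embryos bred at high density and those of the other 7 at low density. Density varied naturally and no agent was given, as far as the labels say. The set of 5 embryos was drawn from measured values, not from a label. It held high-density embryos 3 and 7 together with low-density embryos 3, 4 and 6, so that 2 of 7 high-density and 3 of 7 low-density embryos belonged to it. The labels give no sex, nest or batch for an embryo.

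In birds, males carry a pair of Z chromosomes and females carry a single Z with a W. Compensation for the single Z is known to be partial and to act gene by gene, so many Z-linked genes are less abundant in females, down to the level that follows from gene copy alone. A ratio of 0.5 is the value for a gene whose RNA follows a single copy against a pair, and a ratio of 1 is the value for equal abundance. The rows carry identifiers and, except for 7 of them, no gene names. None of the 103 members has a name, so neither a chromosome nor a function is given for any of them, and whether they lie on the Z was not tested. A check against 38 symbols of brain and blood cell types and of genes on the chicken Z matched 0 names in the table, so the labelled tissue was not checked against markers either.

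Libraries held 3950422 to 6812901 estimated counts. The 5 embryos spanned 4170458 to 6745008 and the 9 spanned 3950422 to 6812901, so depth overlapped between the sets. High-density embryo 7, one of the 5, had the fewest genes with a count, 11308, against 11879 to 12528 in the others. In log2(CPM + 0.5) over all rows, its mean correlation with the other libraries was 0.923, and those of high-density embryos 2 and 4, both among the 9, were 0.895 and 0.925, against 0.939 to 0.952 for the other 11. The letter prefix of the sample codes, whose meaning is not stated, did not separate the sets, as 5 of the 6 prefixes occurred in both. It did follow density: BA and GP were all high density, CC, CS and CN all low density, and only SW held both. Outside SW, density and prefix cannot be told apart.

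In the 5 brains the members stood near 0.5 of their mean level in the other 9, with high-density embryo 7 somewhat lower. With every gene expressed relative to its own mean over the 9 brains, the median member stood at 0.526 in high-density embryo 3, 0.438 in high-density embryo 7, 0.476 in low-density embryo 3, 0.477 in low-density embryo 4 and 0.483 in low-density embryo 6. In the 9 other brains the same median ran from 0.918 in low-density embryo 7 to 1.09 in high-density embryo 4. High-density embryo 7 was the lowest of the 5 and the most uneven, with a spread over members of 0.147 (SD) against 0.0899 to 0.112 in the other 4. The members together took 0.741 ± 0.02% of all counts in the 5 brains (SD, n = 5) and 1.52 ± 0.11% in the 9 (SD, n = 9). Since the same values chose the members, these levels are a description and were not tested. In whole brains, fewer cells of a type and less RNA per cell cannot be told apart.

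**Figure D1:**
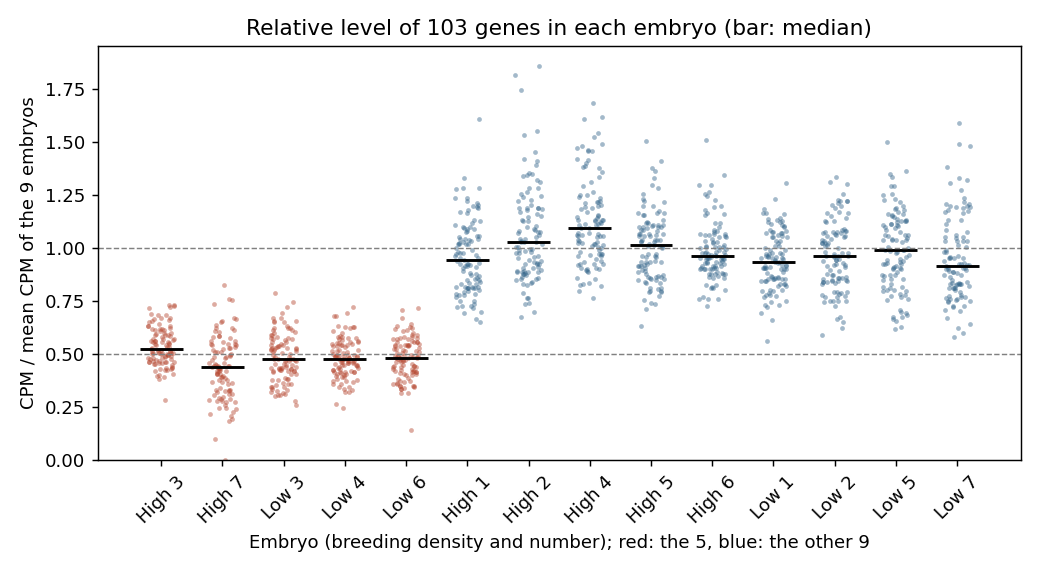
CPM of each of the 103 members in each embryo, divided by the gene's mean CPM over the 9 embryos. Points are genes, bars are medians, red marks the 5 embryos and blue the other 9, and High and Low give the breeding density. The medians of the 5 lie between 0.438 and 0.526 and those of the 9 between 0.918 and 1.09.

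The ratio of mean CPM in the 5 brains to mean CPM in the 9 lay close to 0.5 for most members. Its median over the 103 genes was 0.486, its SD 0.0626 and its range 0.322 to 0.642. The ratio was under 0.5 in 62 members and 0.5 or above in 41. It lay between 0.4 and 0.6 in 92 members (89.3%), under 0.4 in 8 and over 0.6 in 3. Over all 9644 rows the median ratio was 0.962, with quartiles at 0.848 and 1.07. Divided by that median, the members' median ratio became 0.505.

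The scatter of the ratio among members was close to the error of a single gene's ratio. The standard error from the spread between embryos had a median of 0.0533 and ran from 0.0191 to 0.107, where the SD over members was 0.0626. Counting error alone had a median of 0.017, so most of the error was spread between libraries beyond counting. With 1 library per embryo, differences between embryos and those from library preparation cannot be told apart. Of the 103 ratios, 60 lay within 1 standard error of 0.5 and 94 within 2. Another 6 lay more than 2 standard errors below 0.5, and 3 lay more than 2 above. All 103 ratios come from the same 14 libraries, so their errors are shared and the genes are not independent replicates. No member came near equality, the closest being 5.23 standard errors from a ratio of 1. The rule removes genes with ratios near 1, so the distance from 1 was fixed by the choice. It also favours genes with little spread, so the errors and the scatter around 0.5 were shaped by the choice as well. The rule sets no lower bound on the ratio but limits it from above, since a gene with more spread needs a lower ratio to enter. Genes only slightly lower in the 5 brains could thus be left out, so the median ratio was shaped by the choice too. The closeness to 0.5 is a description and was not tested.

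**Figure D2:**
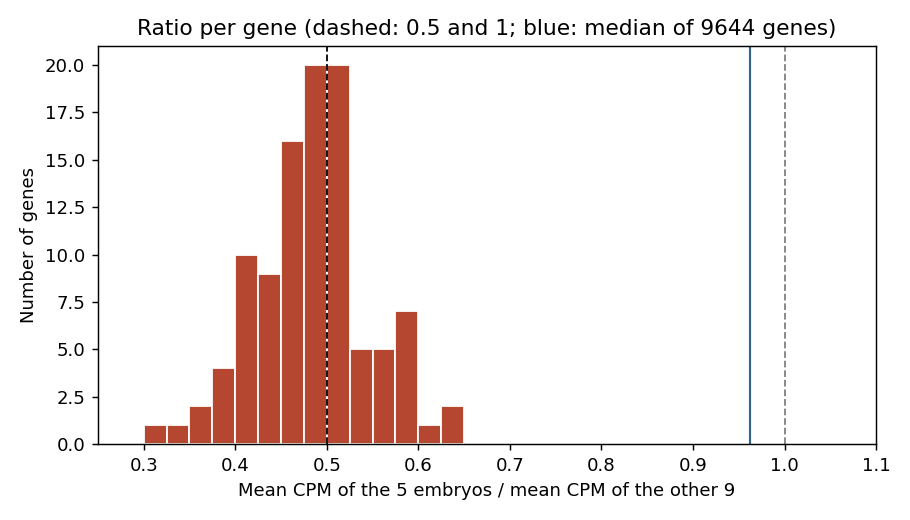
Number of the 103 members at each ratio of mean CPM, the 5 embryos over the other 9. Dashed lines mark 0.5 and 1 and the blue line marks the median of all 9644 rows, 0.962. The members gather around their median of 0.486 between 0.322 and 0.642.

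The most abundant member, tree_swallow004917, shows the pattern with the least counting error. It was at 885.5, 942.2, 1070, 817.7 and 1048 CPM in the 5 brains (first high-density embryos 3 and 7, then embryos 3, 4 and 6 of low density). In the 9 others its lowest, median and highest values were 1548, 1968 and 2118 CPM. The highest of the 5 was well below the lowest of the 9, and within each set the densities were interspersed. The ratio was 0.494 ± 0.030 (SE), from means of 952.5 ± 106.7 CPM (SD, n = 5) and 1929 ± 193 CPM (SD, n = 9).

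The member with the lowest ratio, tree_swallow005497, was among the least abundant. It was at 4.60, 0, 2.04, 2.80 and 3.12 CPM in the 5 brains, in the same order. A count of 0 in high-density embryo 7 allows up to 0.714 CPM. In the 9 others it had a lowest value of 4.61, a median of 7.20 and a highest of 14.5 CPM, the highest in high-density embryo 2. Its sets all but touched, and its ratio of 0.322 ± 0.107 (SE) was the least precise of all members.

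At the other end, the member with the highest ratio was at 133.1, 125.2, 125.4, 117.5 and 118.1 CPM in the 5 brains. It was at 166.8 CPM or more in the 9, with a median of 190.7 and a highest value of 236.7 CPM. Its ratio of 0.642 ± 0.030 (SE) was among the 3 that lay more than 2 standard errors above 0.5. The member at the median ratio was at 91.9, 71.2, 122.2, 98.4 and 92.6 CPM in the 5 and at 145.8 to 270.6 CPM in the 9, with a median of 186.4. Both genes were in the upper part of the members by abundance, at ranks 17 and 19.

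The sets were furthest apart in a member of moderate abundance, where the lowest of the 9 brains was 1.83 times the highest of the 5. It was at 15 to 24.6 CPM in the 5 and at 45.1 to 59.7 CPM in the 9, with medians of 21.8 and 52.4. The median of this gap over members was 1.26, and 11 members had a gap of 1.5 or more while 21 had one under 1.1. At the threshold itself, the 3 members with the narrowest gaps had values of 1.0008, 1.0035 and 1.0039. The 3 rows just outside had gaps of 0.9998, 0.9996 and 0.9956, with ratios of 0.604, 0.505 and 0.565. Within 0.95 to 1 there were 19 such rows.

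At the median, members were more abundant than the rows as a whole. Their mean CPM had a median of 64.7 with quartiles at 34.0 and 134, against 35 with quartiles at 14.9 and 86.0 for the 9644 rows. It ran from 5.21 to 1580 CPM, with 42 members at 100 CPM or more, 3 at 500 or more and 6 under 10. These are CPM levels, not scaled by gene length, so they do not rank genes by number of transcripts. The rule favours genes with little spread. Rows with ratios in the members' range that were no members had a median of 16.1 CPM. The choice of members may therefore bear on their abundance, which was not tested. The ratio rose slightly with abundance over members (Spearman's rho 0.22 and, with log10 mean CPM, Pearson's r 0.27, across 103 genes of the same 14 libraries). The 35 least abundant members had a median ratio of 0.456 and an SD of 0.0738. The 34 in the middle and the 34 most abundant both had a median of 0.493, with SDs of 0.0551 and 0.0508. From the least to the most abundant group, the median SE of the ratio was 0.0593, 0.05 and 0.0495. A gene with more spread needs a lower ratio to meet the rule, so the choice of members bears on this trend, which was not tested.

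**Figure D3:**
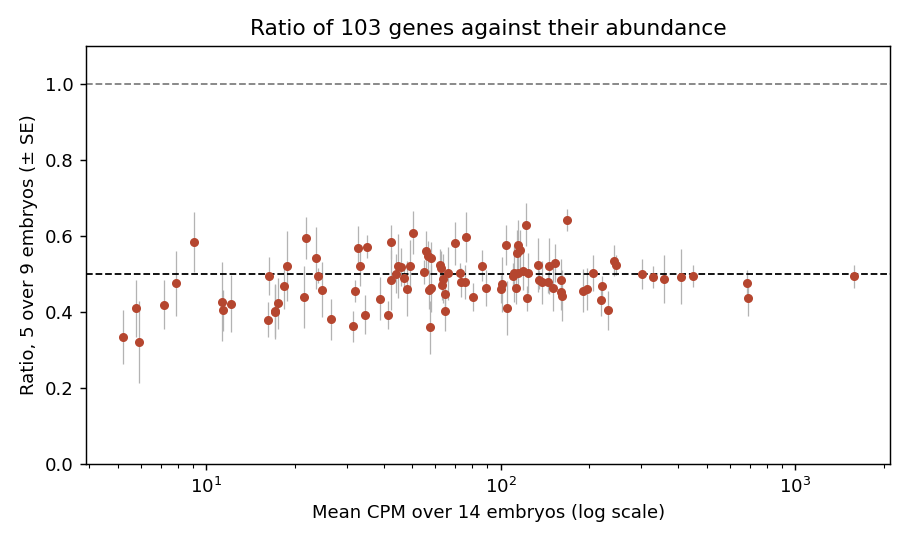
Ratio of mean CPM, the 5 embryos over the other 9, against mean CPM over all 14 embryos on a log scale, for the 103 members. Bars are standard errors from the spread between embryos, and dashed lines mark 0.5 and 1. The ratios stay around 0.5 over the range of 5.21 to 1580 CPM and scatter more among the least abundant genes.

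The members also varied little between brains of the same set. Their coefficient of variation had a median of 17.3% over the 9 brains and 19.6% over the 5, against 31.3% and 32.4% for all 9644 rows. The rule favours even genes, because an uneven gene overlaps between the sets. It therefore took only some of the genes with such ratios. Of 716 rows with a ratio from 0.322 to 0.642, 103 (14.4%) were members. The remaining 613 overlapped between the sets, had a median coefficient of variation of 65% over the 9 brains and were less abundant, with a median of 16.1 CPM. High-density embryos 2 and 4 had the highest value of the 9 in 43 members. The share over all 9644 rows is not given, so this count is not read as a trait of the members. Without high-density embryos 2 and 4, and so with fewer brains to separate, the rule found 122 rows. The median ratio of the 103 genes was then 0.497, and without high-density embryo 7 it was 0.495.

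More rows lay near a ratio of 0.5 than near its reciprocal. Over all 9644 rows, 504 had a ratio between 0.4 and 0.6, whereas 38 had one between the reciprocals, 1.67 and 2.5. Without high-density embryos 2 and 4 these counts were 324 and 43, and without embryo 7 they were 412 and 54. The first count thus fell when these libraries were left out. It was not recounted without any other embryo. The 31 rows that were higher in the 5 brains differed among themselves. In 14 of them the mean over the 9 brains was under 1 CPM, and 5 were at 0 in all 9. The other 17 had ratios of 1.45 to 15.4 with a median of 2.89, and 4 of these lay between 1.67 and 2.5. tree_swallow004925, the most abundant of the 31, was at 694.4 to 809.1 CPM in the 5 brains, with a median of 740.5, and at 0 to 2.25 CPM in the 9, with a median of 0. tree_swallow001947, the next by abundance, was at 249.1 to 417.2 CPM in the 5 and at 123.9 to 221.0 CPM in the 9, with medians of 356.4 and 152.5.

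The rule was also applied within a single density and the ratio of the rows it picked was read in the embryos of the other density. This is a description, since the assignment of embryos to the 5 or the 9 was drawn from all 14 and the members are lower at both densities by the rule that chose them. In the 7 high-density embryos, 353 of 9692 rows with a mean of 5 CPM were lower in embryos 3 and 7 than in all 5 others, and 103 of the 353 were the members. The 353 rows had a median ratio of 0.813 in the low-density embryos, where that of all 9692 rows was 0.973. Of the 353, 126 (35.7%) had a ratio between 0.4 and 0.6, against 3.76% of the 9692. These included 38 of the 250 that were no members, while another 92 of the 353 lay between 0.9 and 1.1. In a narrower range between these, from 0.7 to 0.8, lay 12 rows. Further rows lay from 0.6 to 0.7 and from 0.8 to 0.9, so the ranges are not cleanly separated groups. With fewer brains to separate, the rule picked more rows. Without high-density embryos 2 and 4 it picked 972, with 157, 33 and 303 in the ranges 0.4 to 0.6, 0.7 to 0.8 and 0.9 to 1.1. Without embryo 7 it picked 784, with 140, 20 and 274 in these ranges.

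Rows picked in the low-density embryos did not form a separate group around 1 when read at high density. Of 9357 rows, 325 were lower in embryos 3, 4 and 6 of low density, and 101 of them were members. At high density 134 of the 325 (41.2%) had a ratio between 0.4 and 0.6, against 6.98% of all 9357 rows. The 134 included 54 of the 224 that were no members. Of the 325, 29 lay in the narrower range from 0.7 to 0.8 and 29 from 0.9 to 1.1. The median ratio of the 325 there was 0.611, where that of all 9357 rows was 0.943. Read without high-density embryos 2 and 4, 138 lay from 0.4 to 0.6, 24 from 0.7 to 0.8 and 44 from 0.9 to 1.1, with a median of 0.608. Read without embryo 7, these counts were 99, 25 and 47 and the median was 0.718.

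**Figure D4:**
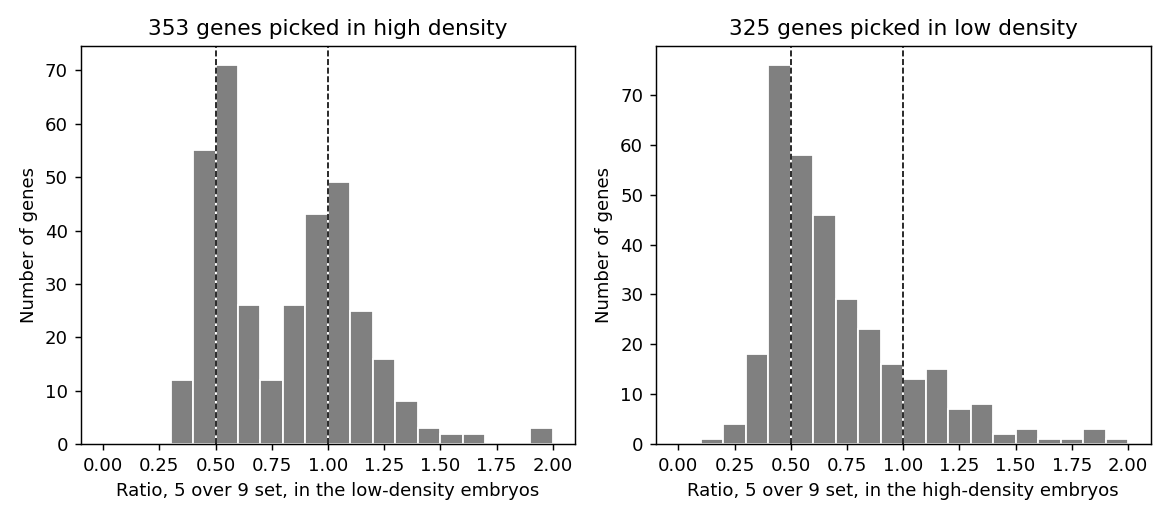
Ratios of rows picked as lower in the 5 embryos within a single density, read in the embryos of the other density. Left, 353 rows picked at high density and read at low density; right, 325 rows picked at low density and read at high density; dashed lines mark 0.5 and 1, and the last bin takes the 2 rows (left) and 1 row (right) with a ratio of 2 or more. On the left, 126 rows lie between 0.4 and 0.6 and 92 between 0.9 and 1.1. On the right, 134 and 29 do. Of the rows between 0.4 and 0.6, 38 on the left and 54 on the right were no members. The others were members, which are lower at both densities by the rule.

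No member passed the test for breeding density, the comparison that the study was designed for. The rule did not use the density labels, but both sets hold embryos of both densities. A gene that changed strongly with density would tend to overlap between the sets. The rule therefore disfavoured such genes, and the low number of calls is not independent of the choice. All 103 members were among the 10774 genes tested, and 0 had an adjusted p under 0.05 in edgeR's quasi-likelihood test of high against low density, in which 615 genes (5.71%) were called. At an unadjusted p under 0.05 there were 2 members, against 24.8% of all genes. DESeq2 also called 0 members, where it called 12.4% of all genes, and put 2 members at an unadjusted p under 0.05 (27.6% of all genes). With limma-voom 0 members were called against 12.9% of all genes, and 13 had an unadjusted p under 0.05 against 30.7%. The lowest edgeR adjusted p among members, 0.116, belonged to the fifth most abundant, with a difference of 0.71 ± 0.26 on the log2 scale (SE). Its means were 510.5 ± 228.4 CPM at high and 309.0 ± 76.5 CPM at low density (SD, n = 7 each). The most abundant, tree_swallow004917, had means of 1632 ± 520 CPM at high and 1528 ± 539 CPM at low density (SD, n = 7 each). Its log2 fold change of 0.07 ± 0.26 (SE) had an adjusted p of 0.887 by edgeR and changed sign in other settings. The levels of a member fall into a lower and an upper group within each density, which widens the spread there. The median SE was 0.26 over members, close to the 0.25 over all genes tested. With a term in the edgeR model for belonging to the lower group, the median SE was 0.16 over members and 0.25 over all genes. In that fit 0 members were called as well. A p above the threshold does not show equal levels.

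The median log2 fold change with density was 0.17 over members, from -0.26 to 0.81, and 0.01 over all genes tested, with 87 of 103 members and 50.7% of all genes on the positive side. The densities hold unequal shares of the lower set, and with 2 of 7 against 3 of 7 embryos a ratio of 0.486 alone gives 0.13 on the log2 scale. By DESeq2 the median over members was 0.18, with 87 members and 51.3% of all genes positive. By limma-voom it was 0.31, beside -0.03 over all genes, with 98 members and 47.4% of all genes positive. With a term for the set of 5 in the edgeR model, the median over members was 0.07, beside 0.01 over all genes. There 69 members were positive, against 50.5% of all genes. In that fit 0 members were called, where 3.01% of all genes were, 8 had an unadjusted p under 0.05 (22.8% of all genes), and the lowest edgeR adjusted p was 0.0543. Without high-density embryos 2 and 4 the median was 0.05, beside 0.02 over all genes, and 67 members were positive, against 52% of all genes. In that edgeR fit 0 members had an unadjusted p under 0.05 (14.2% of all genes).

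Whether density changed the ratio itself was asked by the interaction of density with the set of 5. The ratio within high density, 2 over 5 embryos, had a median of 0.468 (SD over members 0.0881), and the ratio within low density, 3 over 4 embryos, had a median of 0.501 (SD 0.0691). Over all 9644 rows these medians were 0.936 and 0.973. The ratio was lower at high density in 60 of 103 members (58.3%) and in 54.1% of all rows. Without high-density embryos 2 and 4 the high-density median was 0.501 and the ratio was lower there in 53 members. The values over all rows are not given for that setting, so these shifts are not read as a trait of the members. Between 0.4 and 0.6 lay 80 members at high density and 88 at low density.

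In edgeR's quasi-likelihood test of the interaction, 0 of 103 members passed an adjusted p of 0.05, and neither did any of the 11576 genes tested (0%). The lowest edgeR adjusted p among members was 1. At an unadjusted p under 0.05 there were 3 members against 2.64% of all genes, and 3 members against 3.25% of all genes with DESeq2 and 2 against 1.38% with limma-voom, which each called 0 genes. Without high-density embryos 2 and 4, edgeR again called 0 genes, with 4 members at an unadjusted p under 0.05 against 4.04% of all genes. The median interaction over members was 0.08 on the log2 scale, with a median SE of 0.34, beside 0.05 over all genes. With 2 embryos of the lower set at high density and 3 at low density, the test is imprecise, and a p above the threshold does not show equal ratios.

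**Figure D5:**
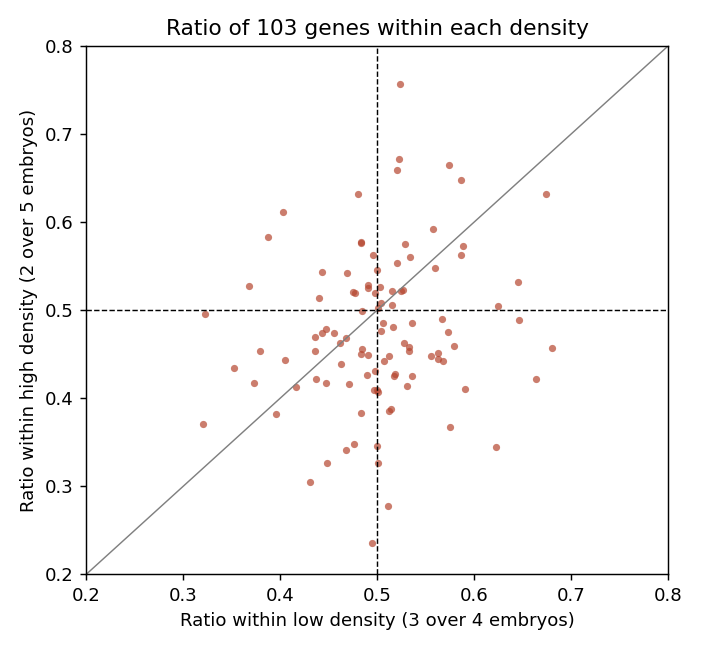
Ratio of mean CPM, the set of 5 over the set of 9, within the low-density embryos (x axis) and within the high-density embryos (y axis) for each of the 103 members. The grey line marks equal ratios and dashed lines mark 0.5. The points gather around 0.5 on both axes, with medians of 0.501 at low and 0.468 at high density.

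The ratios of a member at high and at low density were only weakly related. Over the 103 genes, Pearson's r between them was 0.17 and Spearman's rho 0.18, computed from different embryos of the same data set. The rule removes genes with ratios near equality, and both ratios varied little over members (SD 0.0881 at high and 0.0691 at low density). Each ratio also rests on few embryos. A narrow range and such error lower a correlation, so these values cannot decide whether a member's ratio is reproducible. The member with the lowest interaction p had a ratio of 0.757 at high and 0.524 at low density, an interaction of 0.67 ± 0.26 on the log2 scale (SE; edgeR unadjusted p = 0.019, adjusted p = 1). The member with the highest ratio over all embryos had ratios of 0.632 and 0.674, both among the higher values.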

How the data were processed

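Estimated counts per gene and embryo were used as the authors deposited them. Salmon 1.9.0 and fastp 0.20.1 are listed in the submitters' processing notes, while the transcriptome used and the way transcripts were joined to genes are not given in those notes or in the other labels. Values are not whole in 3.05% of cells (tolerance 1e-06), and 162 rows with counts share them with another row, 0 of them members. Columns were matched to samples by the description in the labels. Replicates were numbered in accession order within a density. Whether embryos shared a nest is not stated, and p-values cover only the spread among these samples. Correlations of log2 CPM between libraries ran from 0.854 to 0.982, and no library was a copy of another.

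The members, their rule, the set of 5 embryos and the lists were chosen with earlier results of these data known. CPM used unscaled column totals. A ratio is the mean CPM of the 5 over that of the 9, with its standard error from both sets' spread. By rule, 2 members (the most abundant and that with the lowest ratio) and 2 mirrored rows (the 2 most abundant, the first also having the highest defined ratio) are named by identifier; other members are described by rank. Tests used counts rounded to whole numbers, filterByExpr (minimum count 10, minimum total 15), TMM factors and edgeR 4.0.16 (R 4.3.3, quasi-likelihood, robust), with Benjamini-Hochberg adjustment over all genes tested. Both fits were run on simulated data with known changes. The interaction fit missed most of these changes and recovered fewer than the density fit did. Alternatives were DESeq2 1.42.0, limma-voom (limma 3.58.1), other scalings and filters, added terms and embryos left out. The ratios within a single density, the rule applied in a single density, and the values without high-density embryos 2 and 4 or the ratio counts without embryo 7 were added after the data were seen. A count of 0 allows 0.440 to 0.759 CPM, by 3 counts over the library total, which covers counting error only.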

Additional observations from a re-analysis of the deposited data

How the results depend on the processing

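No member was called for density or for the interaction under any alternative, including each fit without 1 embryo (0 to 0 called). No paired analysis was possible because the embryo numbers only follow accession order. Over all genes, the 615 calls for density became 0 with a term for the code prefix, where only prefix SW compares the densities. They became 1339 with DESeq2, 1390 with limma-voom, 324 with a term for the set of 5 and 110 without high-density embryos 2 and 4. They ran from 175 to 1211 without 1 embryo: 386, 265, 278, 1158 and 1211 without high-density embryos 1, 2, 4, 5 and 7, and 250, 284, 396, 229 and 175 without low-density embryos 2, 3, 4, 5 and 6. The interaction was called for 0 to 1 genes without 1 embryo, the 1 without high-density embryo 3, which leaves a single high-density embryo in the set of 5, assumed to vary like the others. The cause of these changes was not tested. The 103 members became 104 to 174 without 1 embryo, the highest without high-density embryo 3 and 104 to 125 without any of the other 13. A rise is built into the rule, since fewer brains have to be separated. Why embryo 3 gave the largest rise was not tested. The rule gave 97 rows on TMM-scaled CPM, 77 of them members (74.8% of the 103 and 79.4% of the 97). Within high-density embryos alone it gave 353 rows and within low-density embryos alone 325, with 7 embryos to separate in place of 14. The median ratio was 0.474 to 0.495 without 1 embryo and 0.519 on TMM-scaled CPM, where the median over all rows went from 0.962 to 1.02, the members' median relative to it was 0.511, and 40 members had a ratio under 0.5 in place of 62. The log2 fold change with density of tree_swallow004917 was -0.03 with a term for the set of 5, -0.03 without high-density embryos 2 and 4 and -0.02 without low-density embryo 4, in a range up to 0.21 without 1 embryo. The standard error of the ratio was highest, at 0.107, in tree_swallow005497, where counting error alone was 0.0414. What made up the rest was not tested.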

Other observations

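Identifier numbers gave little sign that members lie beside each other. Among the 112 rows of 5 CPM or more whose number directly precedes or follows that of a member, 2 were members (1.79%, against 1.07% of all rows) and 1 was a row higher in the 5 brains. The median ratio of these 112 rows was 0.939, near the 0.962 of all rows. What the numbering follows is not stated.

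The 2 members have consecutive numbers and are the fourth and a less abundant member by mean CPM, both lower in the 5 brains. Another pair with consecutive numbers differed in opposite directions and was singled out after its values were seen. The member, the third by abundance, was at 341.4 to 444.3 CPM in the 5 brains and at 630.1 to 1051 CPM in the 9, a ratio of 0.476. The row with the adjoining number was at 238 to 304 CPM in the 5 and at 0 to 1.81 CPM in the 9. Added together, both rows were at 683.2 ± 62.9 CPM in the 5 (SD, n = 5) and at 839.9 ± 145.5 CPM in the 9 (SD, n = 9), a ratio of 0.813, and the ranges, 579.1 to 736.4 and 630.5 to 1051, overlapped. The file does not say whether the rows are copies of one gene, and reads of near-identical copies can be divided between entries, so both values are uncertain.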
